A study of Mus musculus with 3 samples.

Results

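The 8 genes followed here were measured in the smooth muscle of the developing mouse gut: *Actc1*, *Myh7*, *Nexn*, *Synpo2*, *Ckm*, *Ckb*, *Hspb7* and *Sh3bgr*. Most are known for roles in striated muscle, while *Ckb* encodes the brain-type creatine kinase. All 8 were listed together as striated-type muscle genes. They are 8 of 22100 gene symbols, and they were picked from a gene list with their levels in these same libraries in view. Those levels are therefore given as a description and with no test. The small intestine of wild-type, untreated mice was dissociated at the embryonic (E) days E15.5 and E17.5 and at the postnatal (P) day P7. Viable cells positive for the epithelial protein Epcam, or negative for Epcam and for the endothelial and blood cell proteins CD31 and CD45, were sorted and read as 1 droplet library per stage. Mouse strain and sex, and how many animals were pooled, are not given in the sources used here. With 1 library per stage there is no replicate and no test between stages, and every interval below is at 95% and covers counting error only.

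Striated muscle contracts with sarcomeres, in which myosin filaments pull on actin filaments anchored at Z-discs, whereas the smooth muscle of the gut wall uses its own actin and myosin genes and anchors actin at dense bodies. Cytosolic creatine kinases move phosphate between creatine and ATP and so buffer energy in cells with bursts of demand. Small heat shock proteins bind unfolding proteins of the cytoskeleton.

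Cells were sorted into classes one by one from marker genes that exclude the 8. A cell counted as visceral muscle where *Acta2*, *Tagln* and *Myh11* together, and also *Actg2* and *Des* together, reached 50 unique molecular identifiers (UMIs, which tag each captured RNA molecule once) per 10000. Muscle cells short of the *Actg2* and *Des* cut were called elastin-rich where elastin (*Eln*) reached 10 per 10000, and other mesenchymal cells were those below the muscle cuts with fibroblast markers. Visceral muscle held 748, 1138 and 74 cells at E15.5, E17.5 and P7, elastin-rich muscle 0, 20 and 383, and other mesenchymal cells 4011, 5081 and 799, of 27351 cells kept. Beside the genes of the gate itself, whose rank the rule fixed, *Pcp4*, *Cnn1*, *Mylk*, *Myl9* and *Tpm2* were among the 10 leading genes of the visceral class at each stage; the last 4 encode proteins of the smooth muscle contractile apparatus. Libraries held 93501273, 94023160 and 116038115 UMIs, and median depths of visceral muscle cells were 8408.5, 8592.5 and 6174.5 UMIs. Levels are counts per 1e+06 UMIs of a class (CPM); since each molecule is tagged once at its 3′ end, CPM is not divided by transcript length.

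The stretches before the RefSeq start sites (build GRCm38.p6) are shown for *Ckm* and *Myh7*, which were higher together at E17.5, and for *Actc1*, which lay in a minority of cells. Each is 250 bases long, and capitals mark CArG boxes (CC, then 6 bases A or T, then GG, the sequence that serum response factor binds), including those with 1 inner base other than A or T. The stretches are chr7:19410844-19411093 on the plus strand for *Ckm*, chr14:54994550-54994799 on the minus strand for *Myh7* and chr2:114052876-114053125 on the minus strand for *Actc1*.
Ckm: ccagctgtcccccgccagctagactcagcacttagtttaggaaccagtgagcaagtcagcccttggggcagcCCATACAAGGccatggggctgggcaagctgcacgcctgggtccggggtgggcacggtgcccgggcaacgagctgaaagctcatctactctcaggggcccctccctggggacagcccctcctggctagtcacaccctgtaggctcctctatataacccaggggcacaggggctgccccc
Myh7: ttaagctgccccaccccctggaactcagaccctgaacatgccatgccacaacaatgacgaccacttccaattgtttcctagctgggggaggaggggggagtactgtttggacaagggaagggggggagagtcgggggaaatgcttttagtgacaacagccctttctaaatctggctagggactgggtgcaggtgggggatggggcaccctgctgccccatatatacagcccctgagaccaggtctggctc
Actc1: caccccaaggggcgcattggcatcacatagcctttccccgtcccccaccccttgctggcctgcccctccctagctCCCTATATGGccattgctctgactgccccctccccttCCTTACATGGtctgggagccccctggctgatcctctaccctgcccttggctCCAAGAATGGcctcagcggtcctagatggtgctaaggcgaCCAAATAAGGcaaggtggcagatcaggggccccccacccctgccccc
The *Actc1* stretch holds 1 full CArG box, CCAAATAAGG, whose first base is 47 bases before the start site, and 3 with 1 inner mismatch. *Ckm* holds 1 with a mismatch, 178 bases before the start site, and *Myh7* holds no match in this window. Over the 300-base windows of 32851 RefSeq promoters, 1.63% had a full CArG box and 8.50% one with a mismatch. An E-box (CANNTG, read on both strands) was found in the windows of *Actc1*, *Ckm*, *Hspb7*, *Myh7* and *Synpo2*, against 72.3% of all promoters. A match of 10 bases to the site of the MEF2 factors was found for *Ckb* and *Synpo2*, against 3.19% of all promoters, and an M-CAT element (CATTCC, both strands) for *Ckb*, *Hspb7* and 1 of the 2 *Myh7* entries, against 14.7%. RefSeq promoters were listed for 6 of the 8 genes, and *Nexn* and *Sh3bgr* are named only. In the GENCODE vM21 annotation of GRCm38, *Actc1* spans chr2:114047282-114053548 and *Myh7* chr14:54970684-54994626, both on the minus strand, and *Ckm* spans chr7:19404776-19422841 on the plus strand; the 3 start sites used lie inside these spans. *Synpo2* (chr3:123076519-123236149), *Nexn* (chr3:152236982-152266350) and *Ckb* (chr12:111669361-111672338) lie on the minus strand, and *Hspb7* (chr4:141420779-141425311) and *Sh3bgr* (chr16:96200450-96228935) on the plus strand.

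All 8 genes were higher in visceral muscle than in other mesenchymal cells at each stage. At both embryonic stages 8 of 8 were past 2-fold with an interval that excluded no difference, where 7.56% and 8.09% of all genes tested were higher by that rule; at P7 it was 7 of 7 with enough UMIs, where 7.67% of genes were. Since the genes were picked with this contrast in view, nothing is read from the counts. The size of the difference ranged widely. At E17.5 the log2 ratio was 3.34 for *Synpo2*, 4.52 for *Nexn*, 4.79 for *Hspb7*, 5.42 for *Ckb*, 8.00 for *Actc1*, 8.07 for *Ckm*, 8.60 for *Sh3bgr* and 8.67 for *Myh7*.

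**Figure D1:**
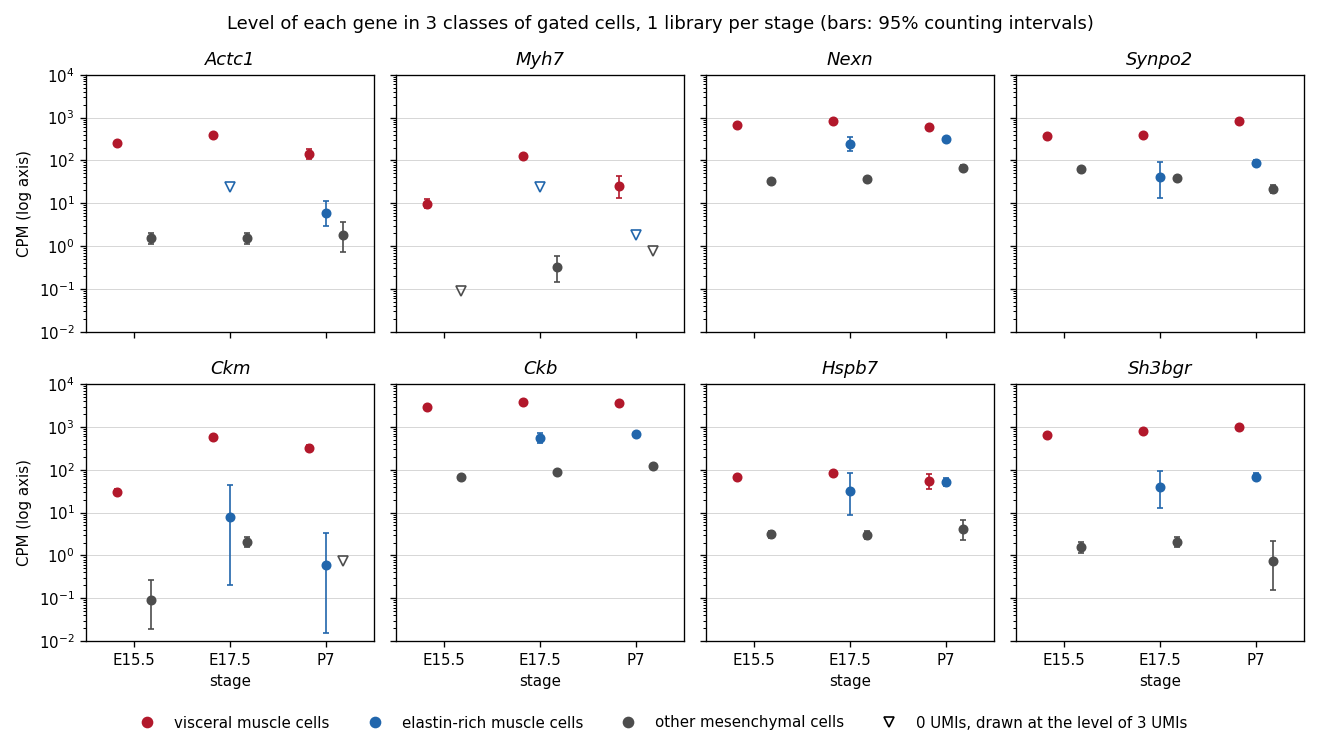
CPM (log axis) of each gene by stage in visceral muscle, elastin-rich muscle and other mesenchymal cells, with 95% counting intervals; open triangles stand for 0 UMIs, drawn at the level of 3 UMIs. Visceral muscle is the highest class for every gene and stage, and *Ckm* and *Myh7* show the widest steps between stages.

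*Actc1* encodes cardiac alpha-actin, the thin-filament actin of the heart. Its levels in visceral muscle, in order of stage, were 251 CPM (interval 240 to 263), 387 CPM (interval 375 to 399) and 143 CPM (interval 111 to 181), against 1.54, 1.51 and 1.77 CPM in other mesenchymal cells. The middle stage thus had the highest value, and the 3 counting intervals did not overlap. These intervals leave out the spread between cells. At P7 the 68 UMIs lay in 12 of 74 cells, and 7 cells held 88.2% of them. Among other actins in visceral muscle, the smooth muscle genes *Acta2* (15883, 19338 and 23952 CPM) and *Actg2* (10699, 23648 and 14548 CPM) were far above *Actc1*. The skeletal alpha-actin gene *Acta1* was far below it, at 3.21, 17.0 and 18.9 CPM. Coding sequences of the muscle actins are nearly identical, so reads that end inside them could be given to the wrong gene.

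*Myh7* encodes the beta heavy chain of myosin, the motor of slow skeletal fibres and of the heart. Visceral muscle held 9.77 CPM of it (interval 7.62 to 12.3) on E15.5, 129 CPM (interval 122 to 136) on E17.5 and 25.2 CPM (interval 13.0 to 44.0) on P7. E17.5 was the highest stage here too. In other mesenchymal cells it had 0, 9 and 0 UMIs. With the 0 at E15.5 set to a floor of 3 UMIs, the visceral level was 108-fold higher, and the interval began at 85.4-fold. At P7 the gene rested on 12 UMIs, under the minimum of 20 set for counting a gene. *Myh6*, the alpha heavy chain of the heart, stood at 0.140, 0.296 and 0 CPM. *Myh8*, the perinatal heavy chain of skeletal muscle, had 1, 25 and 0 UMIs in visceral muscle. Its 2.47 CPM at E17.5 was past 2-fold higher than in other mesenchymal cells (log2 ratio 4.55, 2.83 to 6.92) and than at E15.5 (4.14, 1.53 to 9.50). The smooth muscle heavy chain *Myh11* stood at 3882, 4976 and 7637 CPM. Opposite *Myh7* lie *Mhrt*, *Gm29015*, *Gm17428* and *Gm31251*, opposite *Ckm* lies *A930016O22Rik*, opposite *Actc1* lies *A530058N18Rik* and opposite *Synpo2* lies *Gm43744*. Whether the counting used the strand is not given in the sources used here, so reads of these partners may not be told apart. On the same strand, *Gm43287*, *Gm43288* and *Gm43283* overlap *Synpo2*, *Gm43185* overlaps *Nexn* and *Mir208b* overlaps *Myh7*. Strand cannot set reads of these overlaps apart.

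*Nexn* (nexilin) and *Synpo2* (synaptopodin-2) encode actin-binding proteins of Z-discs, the latter also found at dense bodies of smooth muscle. Visceral muscle held 666 CPM (interval 648 to 686), 838 CPM (interval 820 to 856) and 599.9 CPM (interval 532 to 674) of *Nexn* over the 3 stages. Its *Synpo2* levels were 375 CPM (interval 361 to 390), 399 CPM (interval 387 to 412) and 852 CPM (interval 771 to 939). *Nexn* therefore peaked at E17.5, while *Synpo2* differed little between the embryonic stages and was highest at P7. Both were also present outside visceral muscle. In other mesenchymal cells *Nexn* had 32.9, 36.4 and 68.3 CPM and *Synpo2* 61.9, 39.5 and 21.8 CPM, so that *Synpo2* was the higher of the pair on E15.5 and *Nexn* on P7. In cells gated on markers of interstitial cells of Cajal, the pacemaker cells of the gut, *Synpo2* had 102 CPM (interval 83.5 to 123) on E15.5 and 34.2 CPM (interval 25.9 to 44.4) on E17.5.

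*Ckm* encodes the muscle-type and *Ckb* the brain-type cytosolic creatine kinase. In visceral muscle *Ckm* measured 30.7 CPM (interval 26.8 to 35.1) on E15.5, 567 CPM (interval 552 to 582) on E17.5 and 321 CPM (interval 272 to 376) on P7. *Ckb* measured 2933 CPM (interval 2893 to 2973), 3793 CPM (interval 3756 to 3831) and 3681 CPM (interval 3511 to 3857). The brain-type gene was thus the higher of the pair at each stage, and the muscle-type gene changed more. *Ckm* in other mesenchymal cells was at 3, 60 and 0 UMIs. At E15.5 its log2 ratio of visceral muscle over them was 8.40 (6.84 to 10.69). With the 0 at P7 set to a floor of 3 UMIs, visceral muscle was 423-fold higher, and the interval began at 340-fold. Of all *Ckm* UMIs in the kept cells, visceral muscle held 95.7% on E15.5, 95.7% on E17.5 and 85.0% on P7. *Ckb* was spread wider, with 41.8%, 51.8% and 7.02% of its UMIs in visceral muscle. It was also high in cells that passed no gate, at 1614 CPM in 174 cells on E15.5 and 1836 CPM in 377 cells on E17.5. Glial-gated cells held 1118, 975 and 887 CPM, and *Ckb* was also found in neuronal-gated cells (550, 607 and 352 CPM) and epithelial-gated cells (395, 585 and 204 CPM).

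Other genes of the creatine system were not past 2-fold higher in visceral muscle. *Ckmt1* and *Ckmt2* (mitochondrial creatine kinases), *Slc6a8* (the creatine transporter) and *Gatm* and *Gamt* (creatine synthesis) are 5 genes, of which 3, 4 and 4 had enough UMIs to be counted at E15.5, E17.5 and P7. Of these 0 were past 2-fold higher than in other mesenchymal cells, beside 7.56%, 8.09% and 7.67% of all genes tested. At E17.5 2 were past 2-fold lower, *Gatm* (log2 ratio -1.47, -2.74 to -0.40) and *Ckmt1* (-1.54, -2.50 to -0.70), where 3652 of 14086 genes tested were. With so few genes, nothing is read from these counts. *Slc6a8* was at 19.97, 25.8 and 35.7 CPM in visceral muscle and at 14.4, 20.04 and 26.1 CPM in other mesenchymal cells.

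*Hspb7* encodes a small heat shock protein of heart and skeletal muscle that binds filamin. Its levels in visceral muscle were low beside those of *Nexn* or *Sh3bgr*: 68.4 CPM (interval 62.5 to 74.8), 81.9 CPM (interval 76.4 to 87.6) and 54.5 CPM (interval 35.6 to 79.9). The P7 interval overlapped both embryonic ones. Of a list of 7, small heat shock genes and their partner *Bag3*, 6 could be counted. At each stage 5 were past 2-fold higher in visceral muscle than in other mesenchymal cells, beside 7.56%, 8.09% and 7.67% of all genes tested. *Hspb6* and *Hspb1* were the highest of the list by ratio, with log2 ratios of 5.28 and 5.02 at E17.5, and *Cryab* (2.76) and *Bag3* (-0.61) were the lowest. *Bag3* was past 2-fold lower at P7 (-1.09).

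*Sh3bgr* encodes a small protein related to thioredoxin-fold proteins that is abundant in heart and skeletal muscle. Visceral muscle held 641 CPM (interval 622 to 659), 803 CPM (interval 786 to 821) and 1021 CPM (interval 933 to 1116) of it, the one gene of the 8 besides *Synpo2* whose value was highest at P7. In other mesenchymal cells it had 51, 59 and 3 UMIs (1.54, 2.07 and 0.759 CPM), and at P7 its log2 ratio was 10.39 (8.84 to 12.68). Its relatives *Sh3bgrl* and *Sh3bgrl3* went the other way at E17.5, with log2 ratios of -0.67 (-0.77 to -0.57) and -1.29 (-1.42 to -1.15).

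**Figure D2:**
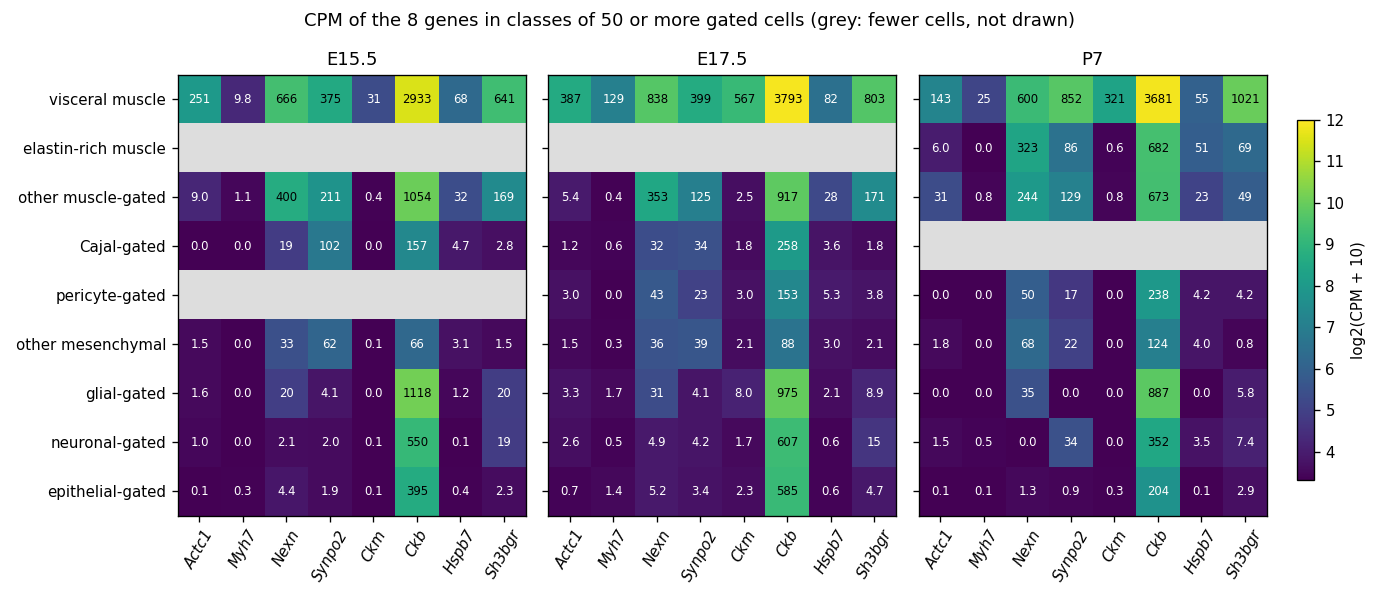
CPM of the 8 genes (columns) in gated classes of 50 or more cells (rows) at each stage, coloured by log2(CPM + 10); grey rows had fewer cells. *Ckb* is bright in glial, neuronal and epithelial rows, and *Nexn* and *Synpo2* in the muscle-gated rows. *Actc1*, *Myh7* and *Ckm* are brightest in the visceral row. Even there *Myh7* is dim at E15.5 and P7 (9.77 and 25.2 CPM), as is *Ckm* at E15.5 (30.7 CPM).

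Low levels outside muscle can include free RNA in droplets, so each gene was also set against *Actg2*. Visceral muscle was gated on high *Actg2* and *Des*, and other mesenchymal cells on low *Acta2*, *Tagln* and *Myh11*. At E17.5 these classes held 23648 and 77.5 CPM of *Actg2*, which bears on these ratios. Per 1000 *Actg2* UMIs at E17.5, visceral muscle held 24.0 of *Ckm*, other mesenchymal cells 27.2 and epithelial-gated cells 27.2. *Actc1* (16.4 in visceral muscle, 19.5 in other mesenchymal cells), *Myh7* (5.44 and 4.08) and *Sh3bgr* (34.0 and 26.8) also had close ratios in both classes, though *Myh7* stood at 16.4 and *Sh3bgr* at 55.8 in epithelial-gated cells. The other 4 genes did not. *Nexn* had 35.4 per 1000 in visceral muscle and 470 in other mesenchymal cells, *Synpo2* 16.9 and 509.5, *Hspb7* 3.46 and 38.1, and *Ckb* 160 and 1139. The part of free RNA in the levels of other mesenchymal cells was not tested.

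From E15.5 to E17.5, *Ckm* and *Myh7* were the genes past 2-fold in visceral muscle. They were higher by log2 ratios of 4.21 (4.01 to 4.41) and 3.72 (3.37 to 4.09), an 18.5-fold and a 13.2-fold difference. This made 2 of 8 higher and 0 lower, where 4.20% of 12075 genes tested were higher and 7.29% lower by the same rule. The other 6 were higher by less: *Actc1* by 0.62 (0.54 to 0.70), *Ckb* by 0.37, *Nexn* by 0.33, *Sh3bgr* by 0.33, *Hspb7* by 0.26 and *Synpo2* by 0.09. The median of the 8 log2 ratios was 0.35, beside -0.28 over all genes tested. In the same cells dissociation and stress genes stood at 2575 CPM in sum at E15.5 and 6601 CPM at E17.5, with 6 of 11 past 2-fold higher, and globin and other erythroid RNA at 4067 and 12317 CPM; their part in the result was not tested.

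The share of visceral muscle cells with a UMI moved with these levels. *Ckm* was detected in 14.6% of cells on E15.5 (interval 12.1% to 17.3%), 73.8% on E17.5 (interval 71.2% to 76.3%) and 56.8% on P7 (interval 44.7% to 68.2%), and *Myh7* in 7.35%, 40.4% and 13.5%. In epithelial-gated cells, which should lack both and had median depths of 20988, 15296 and 15618 UMIs, the shares were 0.146%, 1.74% and 0.163% for *Ckm* and 0.510%, 1.18% and 0.147% for *Myh7*. With every cell thinned to 3000 UMIs, which 737, 1125 and 71 of the visceral cells reached, *Ckm* was in 7.19%, 59.7% and 42.3% of visceral cells and *Myh7* in 2.31%, 23.3% and 11.3%. The order of the stages was the same with and without thinning.

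From E17.5 to P7 the genes parted. *Synpo2* was higher by a log2 ratio of 1.09 (0.94 to 1.24), *Myh7* lower by 2.35 (-2.35, -3.31 to -1.54) and *Actc1* lower by 1.44 (-1.44, -1.81 to -1.09), which made 1 of 8 past 2-fold higher and 2 lower, where 8.32% and 2.80% of 11180 genes tested were. *Ckm* was lower by less (-0.82, -1.06 to -0.59), as were *Hspb7* (-0.59) and *Nexn* (-0.48). *Sh3bgr* was higher by 0.35 (0.21 to 0.48), and *Ckb* differed by -0.04 (-0.11 to 0.03). With this step the 8 vascular smooth muscle markers went from 339.7 to 1888 CPM in sum in visceral muscle, *Eln* from 15.8 to 526 CPM and the epithelial markers from 56.8 to 264 CPM, while erythroid RNA went from 12317 to 16.8 CPM; their part in the result was not tested. The P7 values rest on 74 cells, and *Myh7* stood at -1.61 with cells thinned and at -2.99 with the gate cuts divided by 2. Within a band of cells with 100 to 200 *Actg2* and *Des* UMIs per 10000, both lower calls were lost: *Actc1* stood at 0.02 (-0.71 to 0.68) and *Myh7*, from 4 UMIs at P7, at -0.88 (-2.78 to 0.53). *Sh3bgr* was past 2-fold higher there, at 1.11 (0.88 to 1.34). The *Synpo2* call was lost with median-ratio scaling (1.00), with Leiden clusters in place of gates (0.95) and with the gate cuts divided by 2 (0.50). With those divided cuts, *Ckm* stood past 2-fold at -1.56, *Actc1* at -2.03 and *Sh3bgr* on the other side, at -0.25.

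The stage steps also moved with how strongly cells carried the gate's own markers. The median of *Actg2* and *Des* per 10000 in visceral muscle was 109.8 on E15.5, 261 on E17.5 and 144 on P7, and 320, 98 and 24 muscle-gated cells lay just inside the cut, between 50 and 100, against 164, 75 and 87 just outside it, between 25 and 50. Within 1 band of 100 to 200, chosen after seeing the data, which held 365, 237 and 26 cells, *Ckm* stood at 38.2, 293 and 269 CPM and *Myh7* at 13.2, 47.0 and 25.6 CPM. Both kept the direction of the whole class from E15.5 to E17.5, with smaller log2 ratios of 2.94 (2.66 to 3.22) and 1.83 (1.31 to 2.37). *Actc1* turned: its levels in the band were 284, 126 and 128 CPM in order of stage, a log2 ratio of -1.17 (-1.38 to -0.97) for the first step. *Sh3bgr* (738, 551 and 1191 CPM) and *Ckb* (3332, 2867 and 3586 CPM) were also lower on E17.5 than before in the band, unlike in the whole class. *Synpo2* kept its step to P7 there (390, 368 and 909 CPM).

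**Figure D3:**
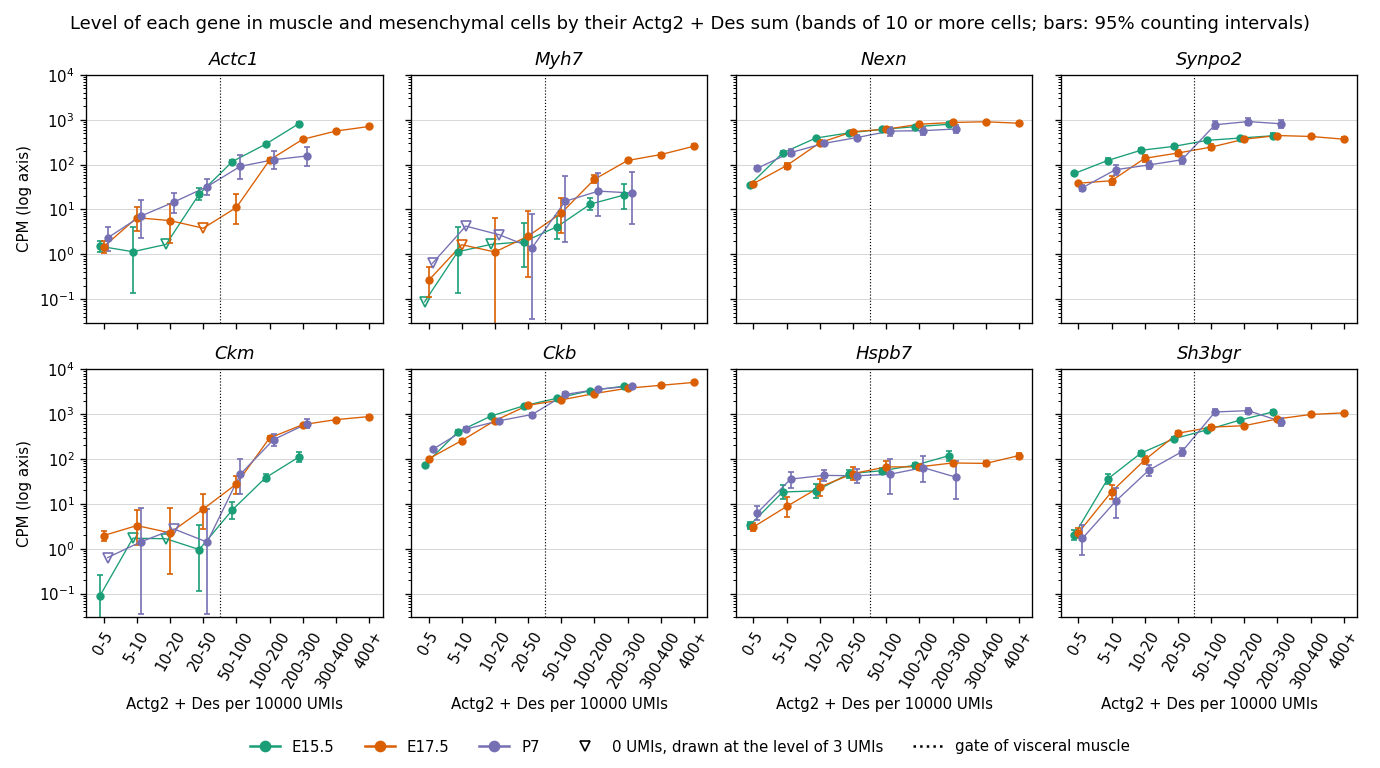
CPM (log axis) of each gene in muscle-gated, Cajal-gated, pericyte-gated and other mesenchymal cells, split into bands by their summed *Actg2* and *Des* per 10000 UMIs (x axis), by stage, with 95% counting intervals; bands of 10 or more cells are drawn, and the dotted line is the visceral gate. *Ckb*, *Nexn*, *Synpo2*, *Hspb7* and *Sh3bgr* climb well below the gate, while *Ckm*, *Myh7* and, at E17.5, *Actc1* stay near the background until it.

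Along these bands the genes differed in how far below the gate they were found. At E17.5, in cells with 10 to 20 *Actg2* and *Des* UMIs per 10000, *Nexn* was already at 307 CPM, against 834 CPM in the band of 400 and more, and *Ckb* at 714 against 5076 CPM. *Ckm* had 2 UMIs in that low band (2.26 CPM) and 879 CPM in the highest, and *Myh7* had 1 UMI and 256 CPM. *Actc1* had 0 UMIs among the 128 cells of the 20 to 50 band, whose floor of 3 UMIs is 3.82 CPM, and stood at 11.1, 126, 366, 558 and 706 CPM in the successive bands from 50 up. At E15.5 *Actc1* was already at 22.1 CPM (interval 16.1 to 29.4) in the 20 to 50 band and at 117 CPM in the 50 to 100 band. The median depth of the cells also grew along the bands, from 5054 UMIs in the 10 to 20 band to 9579.5 UMIs in the highest at E17.5.

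*Actc1* RNA was unevenly spread over visceral muscle cells. Visceral cells with a UMI of it made up 40.9% on E15.5 (interval 37.4% to 44.5%), 41.2% on E17.5 (interval 38.3% to 44.1%) and 16.2% on P7 (interval 8.67% to 26.6%), beside 0.219%, 0.871% and 0.131% of epithelial-gated cells. *Synpo2*, with similar mean UMIs per cell at the embryonic stages (3.59 and 3.56, against 2.41 and 3.45 for *Actc1*), was detected in 88.4% and 89.4%. The contrast held after thinning to 3000 UMIs, at 28.1% and 31.4% for *Actc1* and 62.3% and 64.4% for *Synpo2*. The 10% of cells richest in *Actc1* UMIs held 60.9% and 61.9% of them at the embryonic stages, and those richest in *Synpo2* held 30.05% and 28.5%. Some cells had up to 40 *Actc1* UMIs at E15.5 and 56 at E17.5, while 442 and 669 cells had 0.

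**Figure D4:**
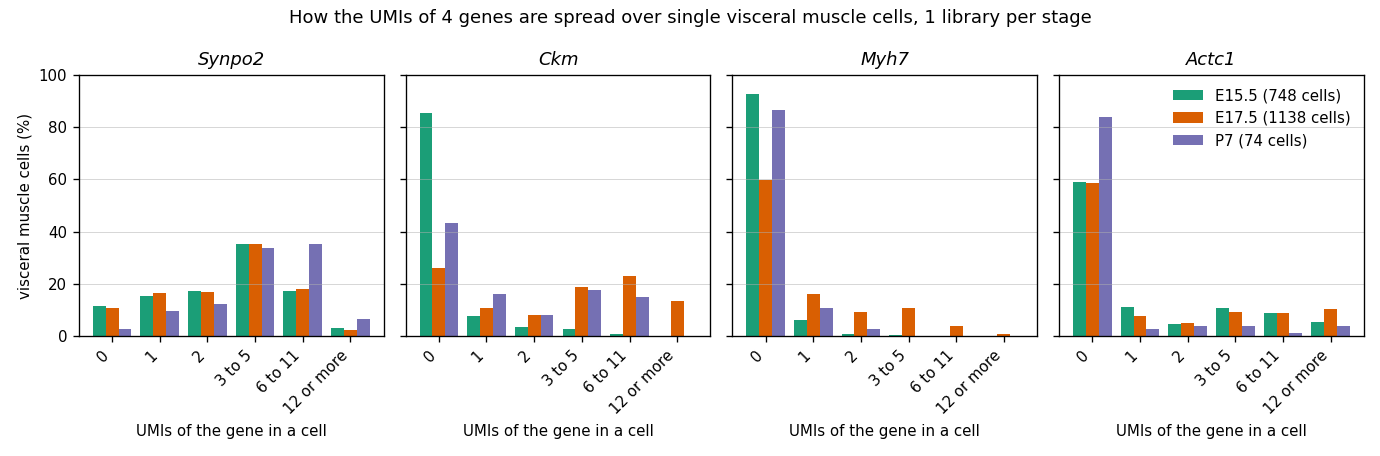
Share of visceral muscle cells (%) by the number of UMIs of *Synpo2*, *Ckm*, *Myh7* and *Actc1* in a cell, at each stage. *Actc1* has many cells at 0 and a tail at 12 or more UMIs, while *Synpo2* has 10.6% to 11.6% of embryonic cells at 0 and most of the rest below 12 UMIs.

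Cells with and without *Actc1* differed past 2-fold in few genes at E15.5 and in more at E17.5. At the earlier stage, of 6749 genes with 100 UMIs or more, 5 were past 2-fold higher in the 306 cells with *Actc1* than in the 442 without, *Tinagl1*, *Kdm1b*, *Dcn*, *Slc49a4* and *Ckm* (43.4 against 21.0 CPM, log2 ratio 1.05, 0.65 to 1.46), and 0 were past 2-fold lower. Median depths were 8600 and 8244.5 UMIs, and medians of *Actg2* and *Des* were 124.8 and 98.1 per 10000. The other members differed by less, from 0.04 for *Nexn* to 0.45 for *Sh3bgr* and 0.88 for *Myh7*. At E17.5, with 469 cells against 669, 3 of 7181 genes were past 2-fold higher in cells with *Actc1* and 39 lower, led by *Col8a1* (log2 ratio -3.84), *Fhl1* (-2.56) and *Ptger3* (-2.45). Median depths there were 9205 and 7969 UMIs, and medians of *Actg2* and *Des* were 296.3 and 229.0 per 10000. The part of depth and of these markers in the differences by *Actc1* was not tested. At that stage the 840 visceral cells with a *Ckm* UMI had 151 CPM of *Myh7* against 51.7 CPM in the 298 without (log2 ratio 1.55) and 440 against 202 CPM of *Actc1* (1.13), but 865 against 745 CPM of *Nexn* (0.22). Cells without *Ckm* also held more *Col8a1* (107 against 7.49 CPM), *Fhl1* (58.7 against 7.49 CPM) and *Ptger3* (40.2 against 5.33 CPM). These genes, a short-chain collagen, a LIM domain protein and a prostaglandin receptor, were also among the 5 genes with the widest such gap for *Myh7*. Cells with a *Ckm* UMI had a higher median of *Actg2* and *Des* (284 against 157 per 10000) and a higher median depth (8964.5 against 7060 UMIs), whose part in these differences was not tested.

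At P7 most muscle cells were elastin-rich, and 5 of the 7 genes counted were past 2-fold lower in them than in visceral muscle, where 6.78% of 8586 genes tested were lower. With Leiden clusters it was 6 of 7. *Ckm* had 1 UMI in 383 cells (log2 ratio -9.06, -14.38 to -6.56), *Actc1* 10 UMIs (-4.57, -5.70 to -3.61), *Sh3bgr* 69.0 CPM (-3.89), *Synpo2* 85.7 CPM (-3.31) and *Ckb* 682 CPM (-2.43). *Nexn* was lower by less, at 323 CPM (-0.89, -1.10 to -0.68). *Hspb7*, at 51.0 CPM (40.7 to 63.0) beside 54.5 CPM, differed by -0.10 (-0.75 to 0.60). *Myh7* had 0 UMIs in elastin-rich cells. The gate itself sets apart *Actg2* and *Des*, which stood at 934 and 705 CPM in elastin-rich cells, against 14548 and 3320 CPM in visceral muscle. Elastin-rich cells also held more dissociation and stress RNA (22409 against 6991 CPM in sum), whose part was not tested. Of 11 such genes 10 were past 2-fold higher, where 1289 of 8586 genes tested were.

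Sarcomere genes other than the 8 were mostly low. Of 47 listed, 45 were in the files. Those with enough UMIs to be counted against other mesenchymal cells were 16, 20 and 7 at E15.5, E17.5 and P7. Of these 12, 15 and 6 were past 2-fold higher in visceral muscle, beside 7.56%, 8.09% and 7.67% of all genes tested. The minimum is over both sums, so a low gene can be counted only through the class or stage where it is high. *Smpx* at P7, with 24 UMIs against 0, is an example, so nothing is read from the counts of this list. The highest by ratio was *Tnnt2*, cardiac troponin T, at 241, 633 and 898 CPM in visceral muscle. *Smpx*, a small muscle protein, stood at 0.558, 8.88 and 50.3 CPM. At E17.5 1 sarcomere gene was past 2-fold lower than in other mesenchymal cells, where 3652 of 14086 genes tested were. Between E15.5 and E17.5, 9 of 19 sarcomere genes counted were past 2-fold higher and 1 lower, beside 4.20% and 7.29% of all genes. Between E17.5 and P7 2 of 15 were higher and 2 lower, beside 8.32% and 2.80%. Of genes that store and release calcium, 11 of 18 counted were past 2-fold higher in visceral muscle at E17.5, beside 8.09% of all genes. Among them was *Casq1*, the skeletal calsequestrin, at 139.95 CPM. Another 3 were past 2-fold lower, where 3652 of 14086 genes tested were. The lowest by ratio were *Sln* (log2 ratio -2.97) and *Ryr1* (-3.21), each with 1 UMI in visceral muscle.

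Markers of skeletal and cardiac muscle cells were at 0 or low in visceral muscle, except cardiac troponin T, but several were higher there than in other mesenchymal cells. At E17.5 5 of 6 skeletal markers counted and 3 of 4 cardiac ones were past 2-fold higher, beside 8.09% of all genes tested. *Acta1* stood at 17.0 CPM and *Tnnt3*, a skeletal troponin T, at 39.8 CPM at that stage. Some were counted through visceral muscle, as *Tnnc2*, with 30 UMIs against 1. *Myod1*, a master regulator of skeletal muscle, had 0 UMIs at each stage, and the 10 skeletal markers in the files summed to 17.7, 69.0 and 21.0 CPM, with 2, 3 and 8 of them at 0; in other mesenchymal cells the sums were 4.56, 6.08 and 6.83 CPM. Of 8 cardiac markers, which summed to 253, 638 and 898 CPM, *Tnnt2* made up nearly all, and *Nppb* and *Mybpc3* were at 0 at each stage. The 10 gut smooth muscle markers summed to 23973, 44482 and 39391 CPM. Of transcription factors listed for muscle, 19, 18 and 16 were counted against other mesenchymal cells in order of stage. Of these 3, 5 and 5 were past 2-fold higher in visceral muscle and 5, 5 and 4 lower. Over all genes tested 7.56%, 8.09% and 7.67% were higher, and 2148 of 13887, 3652 of 14086 and 1993 of 10956 lower. *Hand1* (163, 183 and 120 CPM in visceral muscle) and *Myocd*, the coactivator of serum response factor (212, 140 and 157 CPM), were the highest by ratio at each stage. *Heyl* and *Gata6* were the lowest at E17.5.

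The genes most like each member in pattern were found by Pearson correlation of log2(CPM + 10) over 24 sums of a class at a stage, among 16045 genes; the sums share libraries and depth, so r is a description. *Nexn* went with *Acta2* (0.98), *Myl9* and *Tagln*, the general smooth muscle genes. *Acta2* and *Tagln* are genes of the muscle gate, so the gating itself shaped their pattern over these classes. *Synpo2* went with *Pgm5* (0.97), *Ppp1r12b* and *Slc2a4*. *Actc1* went with *Fstl4* (0.96), *Hspb6* and *Tnnt2*, *Hspb7* with *Dmpk* (0.97), *Myl6* and *Fbxl22*, and *Sh3bgr* with *Asb2* (0.97), *Tm6sf1* and *Cnn1*. *Ckm* went with *Ptgs2os2* (0.96), *Myh7* (0.93) and *Cav3*, and *Myh7* with the low genes *Gm41505* (0.97), *Tctex1d1* and *Rec114*. *Ckb* had the loosest fit, with *Sh3bgr* (0.83), *Lims2* and *Tstd3*. Among pairs of the 8, r ran from 0.44 for *Ckb* and *Synpo2* to 0.94 for *Hspb7* and *Nexn*.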

How the data were processed

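Each library was made with the Chromium 3′ v2 kit, and the submitters' processing notes list Cell Ranger 7.2.0, mm10 and GRCm38. Each deposited matrix holds whole UMI counts that are not normalized, per the file headers. Barcode names are the same 8447 for all 3 libraries and were not used; 0 cells had an identical profile in 2 libraries. Scrublet in scanpy 1.11.5 marked 243, 453 and 389 doublets, which were removed. The symbols came from 1 list shared by the libraries. The gate cuts were read from marker sums after the data were seen, without the 8 genes, and the members, lists and comparisons were chosen with earlier results of these data known. UMIs were summed per class. A gene counted as past 2-fold with a CPM ratio of 2 or more, an interval (exact conditional binomial) excluding no difference and 20 UMIs or more over both sums; no p-value was made. Levels carry exact Poisson and shares Clopper-Pearson intervals. A count of 0 was set to 3 UMIs. Named genes were all 8 members, the 3 nearest patterns of each, family members, and at most the 2 highest and 2 lowest of a list. *Col8a1*, *Fhl1*, *Ptger3*, *Tnnt3* and the single list genes quoted beside a member were chosen after their values were seen. The counting was tested on simulated sums drawn with counting error only, so that test does not cover spread between cells or libraries. Alternatives were median-ratio scaling, gate cuts divided or multiplied by 2, Leiden clusters, doublets kept, cells thinned to 3000 UMIs and no UMI minimum.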

Additional observations from a re-analysis of the deposited data

Results flagged for a closer look

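*Synpo2* and *Nexn* moved in opposite directions in visceral muscle and in other mesenchymal cells over the same step, with both counting intervals excluding no change; the difference itself was not tested, since each stage has 1 library. *Synpo2* differed by a log2 ratio of 0.089 in visceral muscle and -0.65 in other mesenchymal cells from E15.5 to E17.5, and by 1.09 and -0.86 from E17.5 to P7. *Nexn* went the other way between E17.5 and P7, at -0.48 in visceral muscle and 0.91 in other mesenchymal cells. For both genes other mesenchymal cells held far more UMIs per *Actg2* UMI than visceral muscle did.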

How the results depend on the processing

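The total of members past 2-fold, both directions together, stayed within 1.5 times its value for the 6 comparisons, but the split did not. From E17.5 to P7, 1 higher and 2 lower became 0 and 2 with median-ratio scaling, 0 and 3 with the gate cuts divided by 2 or with Leiden clusters, and 2 and 0 in the band below. Of 336 log2 ratios recomputed under the 7 alternatives other than the band, 257 moved by less than their counting interval, 78 moved by more and 1 changed sign, *Sh3bgr* from E17.5 to P7 (-0.25 with the gate cuts divided by 2). The comparison within 1 band of *Actg2* and *Des*, chosen after seeing the data, turned *Actc1* (-1.17, -1.38 to -0.97), *Ckb* (-0.22, -0.26 to -0.17) and *Sh3bgr* (-0.42, -0.52 to -0.32) from E15.5 to E17.5. *Synpo2* (-0.086, -0.22 to 0.04) and *Hspb7* (-0.13, -0.44 to 0.18) on that step, and *Actc1* (0.021, -0.71 to 0.68) from E17.5 to P7, lost their direction, with intervals that include no difference; the cause was not tested. No paired analysis was possible because each stage is 1 library. Depth limits the P7 visceral class most: it held 74 cells, and *Myh7* had 12 UMIs and *Hspb7* 26 there.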

Other observations

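A few levels outside visceral muscle are given here as values. *Synpo2* was at 34.1 CPM (26.5 to 43.1) in neuronal-gated cells at P7, from 69 UMIs, against 1.96 and 4.17 CPM at E15.5 and E17.5. *Sh3bgr* was at 18.8, 15.1 and 7.41 CPM in neuronal-gated cells over the 3 stages. *Ckm* was at 41.2 CPM in 109 immune-gated cells at E17.5, from 52 UMIs that lay in 9 of these cells. Per 1000 *Actg2* UMIs this was 40.4, beside 24.0 in visceral muscle. *Actc1* was at 30.7 CPM (21.7 to 42.1) in P7 muscle cells that were neither visceral nor elastin-rich, where elastin-rich cells had 10 UMIs in all.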
